A study of Bos taurus with 9 samples.

Results

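The 100 transcripts that took the most reads in mature cattle (Bos taurus) oocytes were described here across 9 RNA-sequencing libraries. They were chosen by their mean CPM, the read count of a gene per 1000000 counts of its library, averaged over all 9 libraries, and they are 100 of 15978 genes in the deposited table. The rule also left out ENSBTAG00000014731, which made no difference to the choice, since that gene ranked 3227 with a mean of 49.1 CPM. Because abundance itself chose the members, their levels and their share of the reads are given as a description with no test. The differences between treatments were not the criterion of the choice and were tested over all genes. The mean behind the choice took in all groups, so a gene near the limit could enter through a group in which it was high.

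Each library was a pool of 5 oocytes that had extruded a first polar body after 24 h of maturation in vitro, sequenced to between 7776877 and 9834849 counts. All oocytes came from slaughterhouse ovaries, from follicles of 2 to 4 mm, and matured in medium with serum, follicle-stimulating hormone, chorionic gonadotropin and estradiol. In 3 libraries (IA) the medium also held iodoacetate, in 3 (DCA) dichloroacetate and in 3 (CTRL) neither compound. The labels list doses of 0.1 to 5 µM for iodoacetate and 0.1 to 5 mM for dichloroacetate and do not say which one the sequenced oocytes received. No breed, animal or collection is given, and no label says whether pools were matured or collected separately. The p-values therefore reflect how these 9 libraries vary, and that variation may be technical.

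A fully grown oocyte has almost stopped transcription, and the mature oocyte carries messenger RNA that it made and stored during growth. Stored transcripts are translated or destroyed according to the length of their poly(A) tail, which changes during maturation. A kit that primes on poly(A) RNA, as used here, can therefore read a change of tail length as a change of abundance. Iodoacetate is known as an inhibitor of a glycolytic enzyme upstream of pyruvate, and dichloroacetate as a compound that favours the entry of pyruvate into mitochondrial oxidation.

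The genes are given by their Ensembl identifiers only. The file does not pair them with names, and 0 of the 100 could be matched to a symbol in the gene table used here, so neither their functions nor their transcript lengths nor oocyte and cumulus markers were analysed here. The kit reads whole transcripts, and a longer transcript gives more reads. The order below is therefore an order of reads per gene, not of molecules per oocyte.

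The 100 members are 0.626% of the genes and took 25.0% to 30.5% of all counts. The next 100 genes took 8.89% to 9.66%. By mean CPM, 13 genes sufficed for 10% of the counts, 80 for 25% and 428 for 50%. Within the members the reads were concentrated again, since the first 10 took 7.43% to 10.3% of all counts. A mean above 5000 CPM was reached by 12 members, 34 lay between 2000 and 5000 CPM, and 54 lay below 2000 CPM.

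ENSBTAG00000034346 was the gene with the most reads in each of the 9 libraries. It stood at 31164, 21524 and 29623 CPM with iodoacetate, at 30949, 25454 and 35759 CPM with dichloroacetate, and at 26846, 21927 and 30681 CPM in the controls. The groups overlapped, and library 2 was the lowest of each. Its mean of 28214 CPM was 3.19 times that of the gene ranked second and 23.3 times that of the gene ranked 100. The gene alone took 2.15% to 3.58% of the counts.

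The genes ranked 2 to 10 followed with means of 8847 to 5208 CPM, and none of them kept a rank in all libraries. ENSBTAG00000012184 was ranked between 2 and 5, with a mean of 8050 ± 829 CPM for iodoacetate, 8454 ± 558 CPM for dichloroacetate and 10036 ± 1014 CPM for the control (SD, n = 3 each). ENSBTAG00000027348 was ranked between 2 and 6, with 8005 ± 1311, 8136 ± 238 and 7297 ± 922 CPM in the same order of groups. ENSBTAG00000037710 moved between ranks 2 and 13, and its libraries stood at 8526, 8930 and 7998 CPM with iodoacetate, 8684, 5953 and 6654 CPM with dichloroacetate, and 7652, 4263 and 4797 CPM in the controls. The iodoacetate libraries of this gene lay above the control libraries, and the dichloroacetate libraries overlapped both groups.

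ENSBTAG00000043561, the fifth gene by mean, had the widest range of ranks among the first 10, from 2 to 21. ENSBTAG00000001575, ENSBTAG00000043560 and ENSBTAG00000046609 stayed between ranks 3 and 12 in every library. ENSBTAG00000022450 was ranked between 5 and 13 and had the largest spread within groups of the first 10, and ENSBTAG00000001938 was ranked between 4 and 16. From the third gene on, neighbours in this order differed in mean CPM by less than their pooled SD within groups. The first gene stood 19368 CPM above the second (pooled SD 3528), and the second stood 1034 CPM above the third (pooled SD 881).

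**Figure D1:**
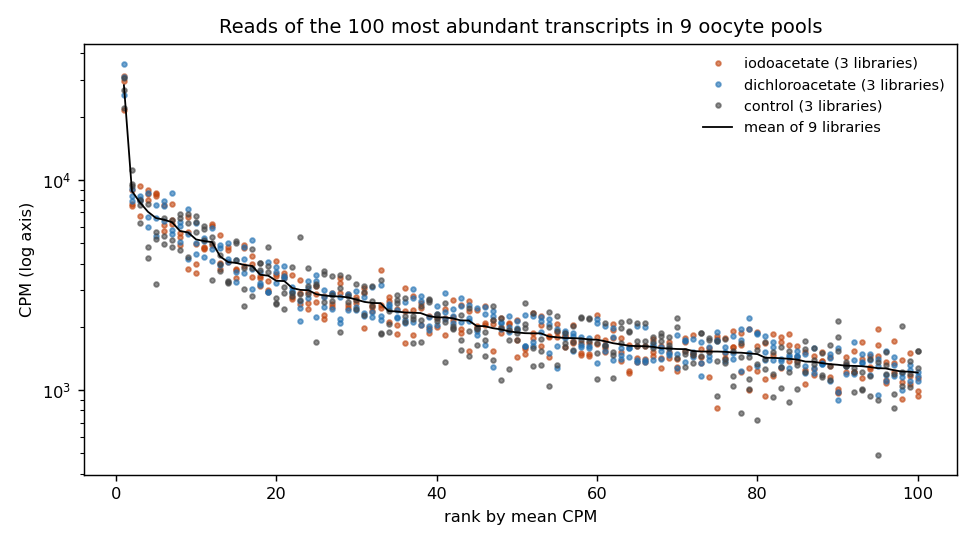
CPM of the 100 members (log axis) against their rank by mean CPM, with 1 point per library coloured by group (3 libraries each) and a line for the mean of the 9 libraries. The first gene stands at 21524 to 35759 CPM, above every other member in every library, and the line then falls slowly, with the points of the groups mixed.

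The limit of the list cut through a dense part of the order. The members just inside it were ENSBTAG00000014326 at a mean of 1225 CPM, ENSBTAG00000047089 at 1224 CPM and ENSBTAG00000005843 at 1211 CPM. The genes just outside it were ENSBTAG00000027069 at 1206 CPM, ENSBTAG00000000022 at 1201 CPM and ENSBTAG00000002117 at 1188 CPM. The single libraries of these 6 genes spanned 714 to 2021 CPM, so their order rests on differences far below the spread between pools.

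Most members were among the 100 genes with the most reads in any single pool as well. This held in all 9 libraries for 67 members, in 7 or 8 libraries for 20 and in 4 to 6 libraries for 13. A total of 98 members stayed within the first 200 genes in all 9 libraries, apart from ENSBTAG00000016069, which was ranked 217 in control library 2, and ENSBTAG00000043545, which was ranked 391 in control library 1. Both were named for this after their values were seen. Over all libraries, 35 genes that are not members entered the first 100 of at least 1 library. The list of a single library shared 86 genes (control library 2) to 96 genes (dichloroacetate libraries 2 and 3) with the members. Each library took part in the choice of the members, which raises this overlap. With a list chosen on the other 8 libraries, a single library shared 84 genes (control library 2) to 96 genes (dichloroacetate library 3).

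The list could also be chosen in 1 group and measured in the others, which frees the measured share from the choice. The 100 genes with the most reads in the control libraries shared 93 genes with the members. They took 27.4% ± 1.97 of the counts in the control itself, 27.6% ± 1.44 with iodoacetate and 28.0% ± 2.50 with dichloroacetate (SD, n = 3 each). Lists chosen in the iodoacetate or the dichloroacetate libraries shared 96 genes each with the members, and they took 27.0% ± 2.04 and 27.1% ± 2.12 of the counts in the control (SD, n = 3 each). These shares differed between groups by less than their spread within groups.

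The share of the members was close in the 3 groups and less close among pools. It was 29.3%, 26.2% and 28.0% in iodoacetate libraries 1 to 3, 28.8%, 25.6% and 30.5% in the dichloroacetate libraries and 27.8%, 25.0% and 28.8% in the control libraries. The groups overlapped. Their means were 27.9% ± 1.54, 28.3% ± 2.52 and 27.2% ± 1.99 (SD, n = 3 each), a range of means smaller than the SD of any group. Library 2 was the lowest of each group, by 2.42 percentage points below the mean of the others with iodoacetate, 4.12 points with dichloroacetate and 3.34 points in the control. The next 100 genes shared this order, with library 2 the lowest of each group at 9.22%, 8.96% and 8.89%. Without the libraries numbered 2 the means of the members were 28.7%, 29.7% and 28.3%. The SDs above include library 2, so the comparison with them does not carry over to these means. Of the libraries left, those with dichloroacetate (28.85% and 30.51%) lay above the controls (27.81% and 28.81%), and those with iodoacetate overlapped both groups.

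**Figure D2:**
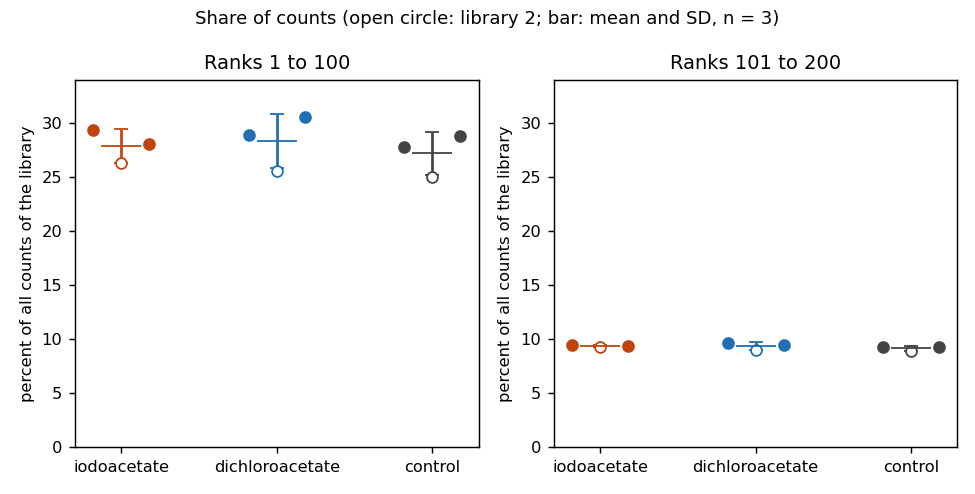
Percent of all counts of a library in the members (left) and in the next 100 genes (right), with 1 point per library, open circles for library 2 of each group, and bars for the mean and SD (n = 3). The 3 open circles lie at 25.0% to 26.2% on the left, below every other library. The values on the right lie between 8.89% and 9.66%, and there too the open circle is the lowest of each group (9.22%, 8.96% and 8.89%).

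The spread between pools was far larger than counting error for the members. It is given as the coefficient of variation (CV, the SD over the mean) of the 3 libraries of a group, combined over the groups as a root mean square. The median over members was 14.4%, from 5.82% to 30.9%, while a count as low as 4745, the lowest of any member in any library, has a counting CV of 1.45%. By group, the iodoacetate libraries had a median CV of 11.9%, the dichloroacetate libraries 11.5% and the controls 14.8%. Single libraries weighed on these values, which were 7.84% without iodoacetate library 1 and 7.34% without dichloroacetate library 2. Over all genes tested the median was 26.5%, with a counting CV of 9.11%. The genes next in order had a like spread, since the next 100 genes had a median of 14.1% and the 300 after those 14.9%, while the first 10 members had 16.2%.

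This spread depended on the scaling. After TMM normalization, which sets libraries to a common level over the bulk of genes, the median CV was 18.4% for the members and 16.7% for the next 100 genes. The same step moved all genes tested from 26.5% to 25.5%. The median of the dichloroacetate group went from 11.5% to 19.6% and that of the control from 14.8% to 18.4%, while the iodoacetate group stood at 13.4%.

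**Figure D3:**
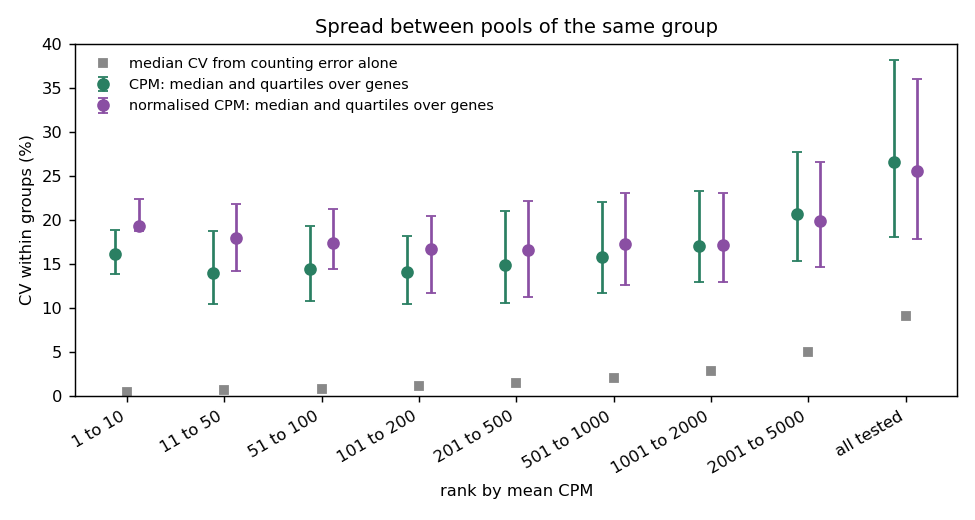
CV within groups (percent, root mean square over the 3 groups) by rank of mean CPM, as the median over genes with lower and upper quartiles, for CPM and for CPM after TMM normalization, with the CV that counting error alone would give as squares. The members (the 3 bins on the left) have medians of 14.0% to 16.2% in CPM and 17.4% to 19.3% after normalization, against counting errors under 1%.

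The 5 steadiest members in CPM lay between ranks 18 and 91. ENSBTAG00000015434 (rank 91) had a CV of 5.82% and stood at 1436, 1221 and 1335 CPM with iodoacetate, 1190, 1304 and 1310 CPM with dichloroacetate, and 1299, 1300 and 1364 CPM in the controls. ENSBTAG00000009575 (rank 18) had a CV of 5.98%, with 3486, 3431 and 3124 CPM, 3632, 3175 and 3232 CPM, and 4007, 4030 and 3733 CPM in the same order. In CPM the control libraries of this second gene lay above all treated libraries, and those of the first gene did not. After TMM normalization its control and dichloroacetate libraries overlapped. ENSBTAG00000018775 (CV 6.36%), ENSBTAG00000003485 (6.59%) and ENSBTAG00000018643 (7.10%) were the next, at ranks 56, 69 and 39. ENSBTAG00000018775 had the smallest range of all members, with the highest of the 9 libraries 1.18 times the lowest. In CPM a CV below 10% was found for 22 members and for 24 of the next 100 genes. After TMM normalization these counts were 7 and 16.

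The least steady member in CPM was ENSBTAG00000043545 (rank 95), with a CV of 30.9%. Its libraries stood at 1634, 1954 and 1454 CPM with iodoacetate, 953, 1407 and 1300 CPM with dichloroacetate, and 490, 1358 and 897 CPM in the controls. Control library 1 was the lowest and iodoacetate library 2 the highest, a 3.99-fold range and the largest of any member. ENSBTAG00000043570 (CV 28.1%) stood at 2469, 3718 and 2552 CPM, at 2146, 3150 and 2259 CPM, and at 1844, 3324 and 1862 CPM in the same order, with library 2 the highest of each group. ENSBTAG00000034366 (27.7%) was low in iodoacetate library 1 at 822 CPM and in control library 3 at 939 CPM, and lay between 1369 and 1895 CPM elsewhere.

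ENSBTAG00000033078 (CV 27.3%) and ENSBTAG00000016069 (26.3%) varied the opposite way to ENSBTAG00000043570. In both, library 2 was the lowest of each group, and in the control it held 0.502 and 0.499 of the mean of the other libraries. A CV above 25% was found for 9 members in all and for 8 of the next 100 genes. After TMM normalization these counts were 17 and 12. In CPM the highest library was over 2 times the lowest for 18 members and over 3 times for 1, with a median ratio of 1.62.

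Library 2 of each group stood apart among the members more widely. In CPM it was the lowest library of all 3 groups for 30 members and the highest of all 3 for 6. Over all genes tested these shares were 6.67% and 24.2%, so genes of lower abundance leaned the other way. In the 100 genes next in order the counts were 22 and 12. After TMM normalization library 2 was lowest in all 3 groups for 47 members and highest for 1, beside 12.8% and 16.0% of all genes tested. Over all genes, the first axis of variation within groups held 37.1% of the variance, with library 2 of each group at its high end. The labels describe no shared run for these libraries, and what sets them apart was not tested.

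**Figure D4:**
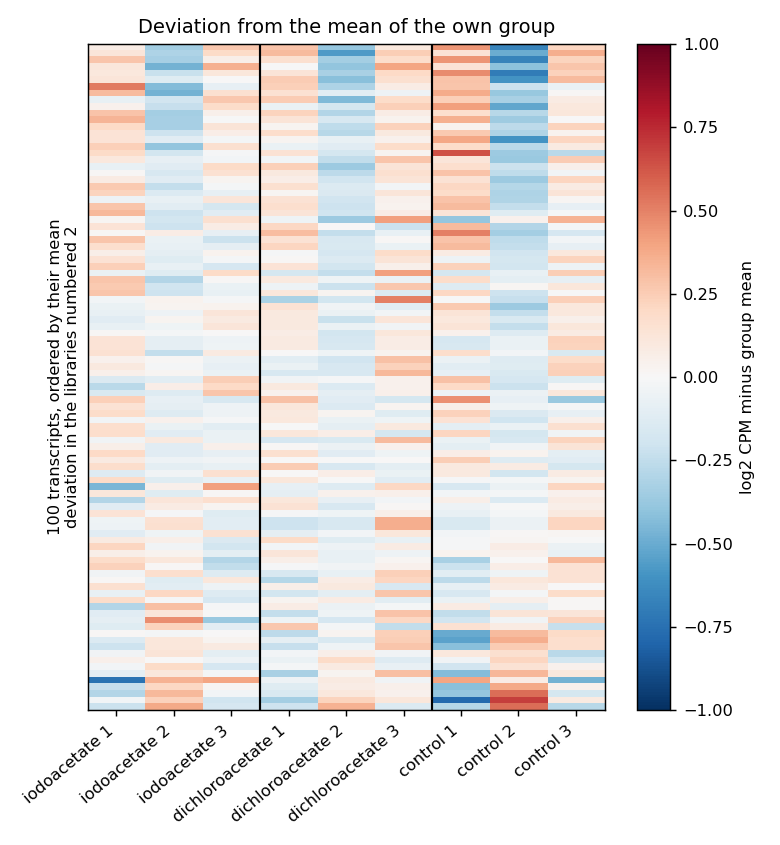
Deviation of each member (rows, ordered by the mean deviation in the libraries numbered 2) from the mean of its own group in each of the 9 libraries (columns), in log2 CPM, with blue for lower and red for higher. Blue fills most of the upper rows in the second column of each group, with red at the foot, the pattern counted as 30 members lowest and 6 members highest in library 2 of all 3 groups.

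The iodoacetate and control libraries were set against each other to ask whether iodoacetate, known as an inhibitor of a glycolytic enzyme, changed the abundant transcripts. The dose is not stated, and whether glycolysis was blocked in these oocytes was not tested. All 100 members were among the 12016 genes tested with edgeR (quasi-likelihood test, adjusted by Benjamini-Hochberg), and 0 passed as higher or lower. Over all genes tested, 0% passed too, and limma-voom also called 0 members. The smallest adjusted p of a member was 0.374. Large estimates were few, since 4 members differed by over 1.5-fold and 0 by over 2-fold, where 15.2% and 3.26% of all genes tested did. The median absolute log2 fold change was close, at 0.24 for the members and 0.25 for all genes tested. The median standard error was 0.21 for the members and 0.30 for all genes tested, so the rarer large estimates go with a smaller error. For 93 members the 95% confidence interval lay within 2-fold in both directions, and for 24 within 1.5-fold. The interval did so for 56.5% and 11.7% of all genes tested.

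The smallest p belonged to ENSBTAG00000043561 (rank 5). In CPM after TMM normalization, called normalised CPM from here on, it stood at 8999, 8233 and 8589 with iodoacetate, 5820, 5880 and 8124 with dichloroacetate, and the controls stood at 3283, 5256 and 5259. Each iodoacetate library lay above each control library, and control library 1 was the lowest of the 9. The log2 fold change of iodoacetate over control was 0.90 ± 0.22 (SE), a 1.87-fold difference, and edgeR gave an adjusted p of 0.374. Without control library 1 the log2 fold change was 0.71. DESeq2 called this gene with an adjusted p of 0.0493, the 1 member among 29 calls in all, or 0.317% of the genes to which DESeq2 gave an adjusted p.

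ENSBTAG00000043545 (rank 95) showed the largest log2 fold change of the members, 0.93 ± 0.27 (SE). Its mean was 1692 ± 228 normalised CPM with iodoacetate, and the controls averaged 889 ± 379 (SD, n = 3 each). The groups did not overlap, and control library 1 was the lowest of the 9. In CPM its control mean of 915 lay below the mean of 1211 of the gene ranked 100, so its place in the list rests on the treated libraries. Its adjusted p was 0.374 in edgeR, and without control library 1 the log2 fold change was 0.64.

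Among the members that were lower with iodoacetate, ENSBTAG00000048369 (rank 90) had the smallest p. The gene stood at 1009, 989 and 978 normalised CPM with iodoacetate and at 972, 880 and 1689 with dichloroacetate, while the controls stood at 1838, 1430 and 2148. The iodoacetate libraries lay close together below all control libraries, and dichloroacetate library 3 lay among the control values. The log2 fold change was -0.86 ± 0.24 (SE), with an adjusted p of 0.374 in edgeR. ENSBTAG00000008112 (rank 64) stood at 1371 ± 234 and 1955 ± 202 normalised CPM (SD, n = 3 each), also without overlap. Its log2 fold change was -0.51 ± 0.19 (SE), with an adjusted p of 0.496 in edgeR.

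At an unadjusted p under 0.05 there were 16 members, 10 higher and 6 lower with iodoacetate, beside 8.51% of all genes tested. The groups did not overlap in normalised CPM for 28 members, 16 above and 12 below the control, beside 12.8% of all genes tested. In CPM before normalization the count was 30 members, 14 above and 16 below, again beside 12.8%. At an unadjusted p under 0.05 DESeq2 gave 14 members (6.98% of all genes it fitted) and limma-voom 16 (8.39%). Leaving out control library 3 reduced the 16 members to 7, beside 5.51% of all genes tested. There were 8, 9 and 10 without iodoacetate libraries 1, 2 and 3, beside 5.69%, 10.7% and 5.87%. The balance of directions also depended on single libraries, with 6 higher and 11 lower without control library 2 and 11 higher and 12 lower without dichloroacetate library 2. Without library 2 of each group there were 10 higher and 13 lower. Scaling by library totals only gave 29 members, 14 higher and 15 lower, beside 7.95% of all genes tested. The median log2 fold change of the members was 0.08 beside -0.01 for all genes tested, and it turned to -0.04 without control library 2 and to -0.01 without iodoacetate library 1. Leaving out any other single library gave 0.02 (iodoacetate library 3) to 0.14 (control library 1).

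With the within-group axis described above added to the model, a fit chosen after the data were seen whose axis comes from the same counts, edgeR called 3 members in this comparison. They were ENSBTAG00000043561 (log2 fold change 0.91, adjusted p 0.0286), ENSBTAG00000043545 (0.99, adjusted p 0.0255) and ENSBTAG00000048369 (-0.84, adjusted p 0.0386). That edgeR fit called 1.33% of all genes tested. The members' median standard error was 0.15 in it, against 0.21 in the main fit. An axis drawn from the variation within groups of the same counts removes spread by construction. The p-values of that fit therefore tend to be too small. Without library 2 of each group, edgeR's quasi-likelihood test called 0 members, and the log2 fold changes of the first pair were 1.04 and 1.17.

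For dichloroacetate against control the question was whether a compound known to favour pyruvate oxidation changed the same abundant transcripts. Whether it did so in these oocytes was not tested. Again edgeR's quasi-likelihood test called 0 members in either direction, beside 0% of all genes tested, and the smallest adjusted p of a member was 0.756. DESeq2 and limma-voom called 0 members as well. A difference over 1.5-fold was estimated for 2 members and over 2-fold for 0, beside 13.5% and 2.75% of all genes tested. The 95% confidence interval lay within 2-fold for 93 members and within 1.5-fold for 29, beside 57.1% and 12.8% of all genes tested.

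ENSBTAG00000014373 (rank 14) had the smallest p of the members. It stood at 5422, 3633 and 4475 normalised CPM with dichloroacetate, 4983, 4564 and 4059 with iodoacetate and 3323, 3067 and 3291 in the control. All treated libraries lay above all control libraries, which were close together. The log2 fold change of dichloroacetate over control was 0.48 ± 0.19 (SE), with an adjusted p of 0.756 in edgeR. ENSBTAG00000018864 (rank 79) had the largest log2 fold change, 0.71 ± 0.28 (SE), and its groups overlapped at 1933 ± 530 and 1182 ± 263 normalised CPM (SD, n = 3 each).

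The largest negative estimate belonged to ENSBTAG00000048369, the gene that was also lower with iodoacetate and is a member through its high control libraries. Its log2 fold change for dichloroacetate over control was -0.61 ± 0.24 (SE), and the groups overlapped through dichloroacetate library 3. Without that dichloroacetate library the log2 fold change was -0.96. ENSBTAG00000013830 (rank 23) stood at 2464 ± 498 normalised CPM with dichloroacetate (SD, n = 3), and its controls stood at 5486, 2492 and 2894. Its log2 fold change was -0.56 ± 0.27 (SE), and control library 1 was far above the other 8 libraries. Without control library 1 it was -0.13. Both treatments were compared with the same 3 control libraries, so a low or high control moves both estimates of a gene.

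At an unadjusted p under 0.05 there were 6 members, 5 higher and 1 lower with dichloroacetate, beside 6.32% of all genes tested. The groups did not overlap for 9 members in normalised CPM, beside 10.8% of all genes tested, and for 19 in CPM, beside 10.2%. At an unadjusted p under 0.05 DESeq2 gave 6 members (5.30% of all genes it fitted) and limma-voom 9 (6.18%). In place of 6 members there were 3 without dichloroacetate library 1 and 3 without control library 3, beside 3.36% and 4.69% of all genes tested. There were 18 without control library 1 and 20 without dichloroacetate library 2, beside 11.9% and 8.94%. The balance of directions turned to 1 higher and 4 lower without dichloroacetate library 3 and to 2 higher and 3 lower without control library 2. Scaling by totals only gave 17, with 11 higher and 6 lower, beside 5.93%. The median log2 fold change of the members was 0.09 beside -0.02 for all genes tested, 0.25 without dichloroacetate library 2, 0.01 without dichloroacetate library 1, 0.05 without dichloroacetate library 3 and -0.01 without control library 2.

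Iodoacetate and dichloroacetate, both halogenated acetates, were also set side by side. The doses of the sequenced oocytes are not stated and the listed doses differ in range, so this is not a comparison at matched doses. In edgeR's quasi-likelihood test 0 members passed, beside 0% of all genes tested, and 0 members had an unadjusted p under 0.05, beside 1.55%. DESeq2 and limma-voom also called 0, with 0 members at an unadjusted p under 0.05 in each. No overlap was found for 3 members in normalised CPM, beside 4.74% of all genes tested, and for 5 in CPM, beside 4.38%. A difference over 1.5-fold was estimated for 0 members, beside 6.71% of all genes tested. The 95% confidence interval lay within 1.5-fold for 61 members and within 2-fold for 98, beside 20.4% and 65.1%.

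The smallest p between the compounds belonged to ENSBTAG00000043558 (rank 28). It stood at 3009, 3360 and 3242 normalised CPM with iodoacetate and 2354, 1871 and 2953 with dichloroacetate, a log2 difference of 0.42 with a 95% confidence interval from -0.06 to 0.90. The control libraries spanned 1932 to 3273 and overlapped both. Without dichloroacetate library 2 the log2 difference was 0.26. On the other side, ENSBTAG00000018864 had a log2 difference of -0.43 with a 95% confidence interval from -1.02 to 0.15. It was -0.77 without iodoacetate library 1, -0.65 without dichloroacetate library 2, -0.26 without dichloroacetate library 1 and -0.23 without iodoacetate library 2. ENSBTAG00000043561 stood at 0.38 (95% confidence interval -0.07 to 0.84), without overlap, and ENSBTAG00000001938 at -0.33. That last value was -0.51 without iodoacetate library 1, -0.52 without dichloroacetate library 2, -0.22 without iodoacetate library 2 and -0.15 without dichloroacetate library 3. The median log2 difference over members was -0.05, beside 0.01 for all genes tested, and the members' median absolute difference was 0.09, against 0.24 for iodoacetate and 0.22 for dichloroacetate over the control. Over all genes tested the order was the same, with 0.15 against 0.25 and 0.24. The median log2 difference changed sign without iodoacetate library 2, where it stood at 0.01, and without dichloroacetate library 1 or 3, where it was 0.04 and 0.02. It was -0.21 without dichloroacetate library 2, -0.09 without iodoacetate library 1 and -0.13 without library 2 of each group.

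**Figure D5:**
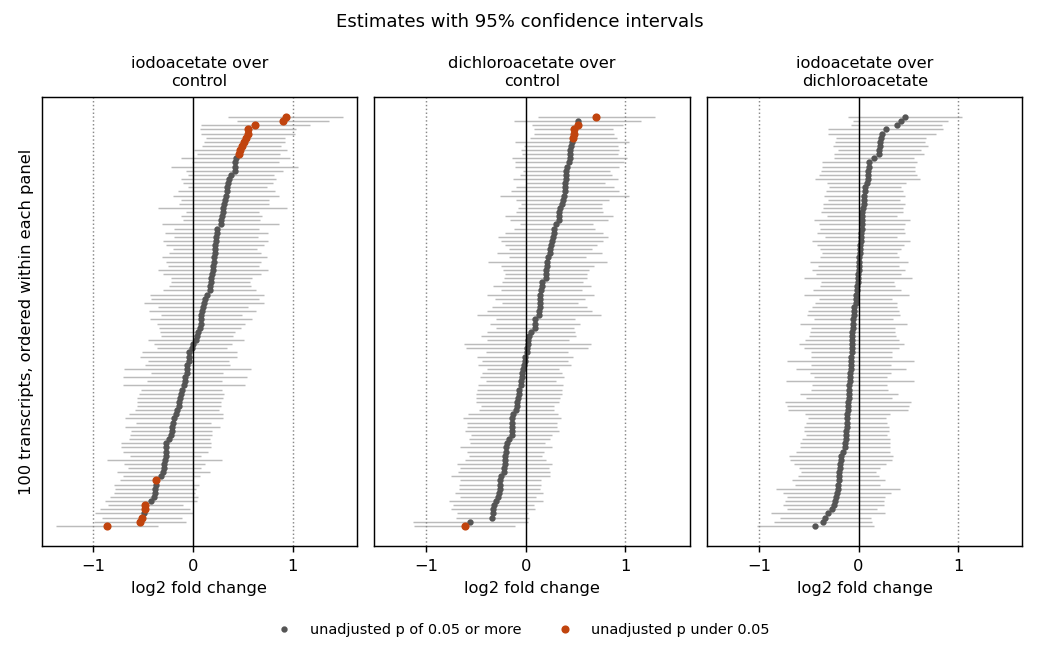
Log2 fold changes of the 100 members with 95% confidence intervals in the 3 comparisons, ordered within each panel, with members at an unadjusted p under 0.05 in orange and dotted lines at a 2-fold difference. The orange points number 16, 6 and 0 from left to right, no member passed the adjusted test, and every estimate lies inside the dotted lines.

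The range of the 3 group means was smaller than the pooled SD within groups for 45 members and over 2 SD for 14, with a median of 1.12 SD, in normalised CPM. The same was not computed over other genes, so these values do not show whether the members were steadier or less steady than those. In the comparison of iodoacetate with control, the members' median standard error of a log2 fold change was 0.21, against 0.30 over all genes tested. The members were not steadier than the genes next in order. Their median CV in normalised CPM was 18.4%, beside 16.7% for the next 100 genes and 16.6% for the 300 after those.

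Some members stood near each other in the rows of the deposited table. In adjacent rows, ENSBTAG00000049814 and ENSBTAG00000051079 had nearly the same values, at 1415 and 1413 CPM in iodoacetate library 1. So had ENSBTAG00000021708 and ENSBTAG00000047322 (means of 2797 and 2758 CPM), and ENSBTAG00000008288 and ENSBTAG00000053950 (1760 and 1741 CPM). Other adjacent members differed more. Whether such pairs count the same reads was not tested, so the members may hold fewer separate transcripts than their number. With gaps of at most 10 rows, the longest chain held 11 members within 41 rows, and no other chain held more than 2. What orders the rows is not stated in the sources used here, so no location or function is attached to the chain, and it was singled out after its values were seen. It included ENSBTAG00000043561 and ENSBTAG00000043545, as well as ENSBTAG00000043560, ENSBTAG00000043570 and ENSBTAG00000043558. Together the 11 genes took 3.78%, 4.04% and 4.09% of the counts with iodoacetate, 2.99%, 3.29% and 4.04% with dichloroacetate, and the controls gave 2.35%, 3.48% and 3.32%. The iodoacetate libraries lay above the control libraries, and the dichloroacetate libraries overlapped both.

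For iodoacetate over control all 11 log2 fold changes of these genes were above 0, beside 49.4% of all genes tested. They ran from 0.08 to 0.93 with a median of 0.35, and 4 of the 11 had an unadjusted p under 0.05, beside 8.51%. For dichloroacetate over control 9 were above 0, beside 48.2%, with a median of 0.15. There 1 of the 11 had an unadjusted p under 0.05, beside 6.32%. The genes share their libraries and were singled out with their values seen, so they are not 11 separate results. Genes between them that are not members were not described. The other 89 members had medians of 0.00 and 0.05. Both comparisons share the control libraries, in which library 1 was the lowest for the chain as a whole. The 89 other members took 23.9% ± 1.66, 24.9% ± 2.27 and 24.1% ± 2.30 of the counts in the 3 groups (SD, n = 3 each), which differed by less than their spread.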

How the data were processed

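RNA was measured in 9 libraries, 3 per group, each from 5 oocytes and about 0.1 ng of RNA, amplified with SMART-Seq HT and sequenced in paired reads of 100 bp, per the labels' protocols. The authors deposited raw read counts per gene, made with Trim Galore, cutadapt, STAR and featureCounts per the submitters' processing notes, which also name DESeq2. For versions, build, annotation and counting mode: not given in the sources used here. Reads of near-identical or overlapping genes may therefore be divided, or counted more than once, in an unknown way. The kit has no molecular identifiers, and counts include amplification copies. Totals ran from 7776877 to 9834849 counts per library, and 0 columns were unused.

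Groups came from the labelled treatment. Replicate numbers only name libraries, and the labels pair none. CPM used the column totals. Differences were tested across all genes with edgeR 4.0.16 in R 4.3.3, in 1 model over 9 libraries. It used TMM, the default expression filter, a robust quasi-likelihood test and Benjamini-Hochberg adjustment at a threshold of 0.05. The fit was run first on simulated data, whose libraries varied independently of each other. That check lacked the variation shared by the libraries numbered 2 and does not cover it. limma 3.58.1 with voom, DESeq2 1.42.0, other scalings, filters, lists and left-out libraries were alternatives. Named members were the first 10, those around the limit, the 5 steadiest and 5 least steady, and those with the smallest p, with at most 2 in each direction per comparison because identifiers had no names. For the same reason 14 gene lists, 4 marker lists and an order per transcript length were not analysed here. No sequence was available for the members. The members and lists were chosen with earlier results of these data known.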

Additional observations from a re-analysis of the deposited data

How the results depend on the processing

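In all 3 comparisons the count of 0 called members held under the other scalings, filters and limma-voom, fits of only the groups compared, an adjusted p threshold of 0.1, every left-out library and the fit without library 2 of each group. DESeq2 was the exception with 1 member and the covariate with 3, both for iodoacetate over control. At an unadjusted p under 0.05, with 16, 6 and 0 members for iodoacetate over control, dichloroacetate over control and iodoacetate over dichloroacetate, scaling by totals gave 29, 17 and 1, beside 7.95%, 5.93% and 1.36% of all genes tested. The covariate gave 33, 31 and 2, beside 15.9%, 14.1% and 2.90% of all genes tested. Its p-values tend to be too small, since the axis comes from the same counts. Without library 2 of each group there were 23, 22 (20 higher) and 4, beside 10.2%, 7.39% and 3.26%. A minimum mean of 10 CPM gave 10 for dichloroacetate over control (6.85% of all genes tested), and a fit of only the groups compared gave 1 between the compounds (1.78%). Leaving out 1 library gave 7 to 23, 3 to 20 and 0 to 3, beside 5.51% to 12.9%, 3.36% to 11.9% and 1.16% to 2.34%. The share of counts was 20.3%, 20.6% and 19.6% for 50 genes and 37.2%, 37.7% and 36.3% for 200 genes (iodoacetate, dichloroacetate, control), by construction. The median CV after normalization was 19.6% with dichloroacetate and 18.4% in the control. Leaving out 1 library gave a median CV of 7.84% to 11.99%, 7.34% to 11.3% and 11.9% to 17.3% in the same order. The cause was not tested for the other changes. No paired analysis was run, because no label numbers the replicates across groups, and no block by the order of the sample titles was fitted. An order by CPM per kb of transcript was planned and not run, since no length could be matched. The fits with the covariate and without library 2 were chosen after seeing the data.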
